A study of Mus musculus with 9 samples.

Results

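The genes described here code for the proteins with which cells send and read cytokine, interferon and NF-kB signals. They were chosen by mouse gene symbol and comprise interleukins and their receptor chains, interferon receptors, the TNF receptor superfamily, TGF-beta receptors, Toll-like receptors, JAK kinases, STAT factors, SOCS proteins, IRAK kinases and TRAF adaptors, the IKK complex, NF-kB subunits, IkB proteins, TNF-induced proteins, interferon regulatory factors and interferon-induced genes. Irf8, Irak3 and Il1rap were left out by the rule. Of 12275 genes listed in either of the 2 deposited tables, 90 met it. The table of BA and AV mice lists 52 of them among 9872 genes, and the table of BA and AP mice lists 86 among 11820 genes. Both tables list 48, the second alone 38, and the first alone Tnfrsf23, Socs2, Ifit1 and Nfkbil1.

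RNA was taken from yellow fluorescent cells sorted from the amygdala, labelled as pyramidal neurons, with each mouse as 1 library. All mice were B6.Cg-Tg(Thy1-YFP)HJrs/J, so the controls carry the YFP transgene too, and its Thy1 promoter drives it in pyramidal neurons of amygdala, neocortex and hippocampus and in some other neurons. Mice were picked by their behaviour in a maze that set palatable food in a lit arm against standard food in a dark arm, and were killed 1 month later: balancing (BA) mice were the reference, avoiding (AV) mice leaned to the dark arm and approaching (AP) mice to the lit one. Each phenotype has 3 mice in the labels, and no age is given there. AV replicate 2 was dropped by the authors as an outlier and is not analysed here, so 2 AV mice stand against 3 BA mice, and 3 AP mice against the same 3 BA mice.

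Cytokines are secreted proteins that bind receptor chains on the cell surface. Interferon receptors and many, but not all, interleukin receptors activate JAK kinases, which phosphorylate STAT factors, while SOCS proteins are made in response and dampen the signal. Toll-like and IL-1 receptors act through IRAK kinases and TRAF adaptors, and TNF receptors through TRAF adaptors. These routes lead to the IKK complex, which frees NF-kB subunits from IkB proteins. IRF factors and STAT factors switch on interferon-induced genes. In the brain, microglia are known for many of these receptors, and astrocytes, oligodendrocytes and neurons for others.

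The values are a normalized signal per gene and mouse, which the authors scaled within each table, so levels are compared between mice of 1 table. The sum per mouse ranged from 3267967 to 3974274 with AV mice and from 4589304 to 5072766 with AP mice. With AP mice no value is under 2, and 78.6% to 88.1% of low values are a whole number of read-sized steps above that, which puts the level of 3 reads between 4.13 and 5.68. A gene below it cannot be told from one without reads, and the limit covers counting error only. The highest value of this level, 5.68, was carried over to the BA vs AV table, where steps were not measured and the depth is unknown. The label was checked against marker lists. Of 16 markers of pyramidal neurons, 3 are listed in each table (Camk2a, Nrgn and Rtn4r), with summed signals of 75.0 to 99.5 in BA mice and 1848 and 3114 in AV mice, and of 91.3, 969 and 1824 in AP replicates 1 to 3 against 91.3 to 127 in BA mice. All 13 markers of oligodendrocytes are listed, with sums of 214600 to 263200 in BA mice of the first table, 59180 and 92270 in AV mice, and 250900 to 319300 in BA and 255000 to 308600 in AP mice of the second. By these markers the sorted material held RNA of oligodendrocytes in every library, and few of the markers that define its label are listed. In such bulk RNA, fewer cells of a type and less RNA per cell cannot be told apart.

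NF-kB, STAT and IRF factors bind short motifs in front of genes, and some of the genes are themselves textbook targets of these factors, among them Nfkbia and Ifit1, so their promoters were searched for such motifs. RefSeq promoters of GRCm38.p6, from 250 bases before to 50 after the start site, were found for 72 of the 90 genes and for 27025 genes in all, and both strands were searched. A gene counted once if any of its promoters held a motif, and the number of promoters per gene is not given here. The longer NF-kB motif, GGGA, any base and TTTCC, was held by 5 of the 72 genes (6.94%), Ifngr2, Il16, Nfkb2, Nfkbia and Tlr3, and by 0.466% of all genes. A shorter NF-kB motif, GGAANTTCC, which overlaps the first at Nfkbia and Il16, was held by 5.56% against 1.07%. The STAT motif TTCNNNGAA stood in 16.7% against 9.55%, and the IRF motif, GAAA and GAAA with any 2 bases between them, in 11.1% against 3.99%. A match is a string of letters and does not show that a factor binds there. The stretches below lie upstream of the start site and are written 5′ to 3′ on the strand of the gene, with the motif in capitals.
Nfkbia, NF-kB motif, chr12:55492648-55492701, minus strand: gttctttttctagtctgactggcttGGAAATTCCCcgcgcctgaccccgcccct
Ifngr2, NF-kB motif, chr16:91546959-91547018, plus strand: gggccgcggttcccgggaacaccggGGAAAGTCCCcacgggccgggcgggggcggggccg
Tnfaip6, STAT motif, chr2:52037879-52037937, plus strand: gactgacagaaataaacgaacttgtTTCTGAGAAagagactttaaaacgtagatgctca
Nfkbid, STAT motif, chr7:30421539-30421597, plus strand: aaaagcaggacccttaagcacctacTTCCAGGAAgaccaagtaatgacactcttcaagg
Tnfrsf1b, STAT motif, chr4:145247018-145247076, minus strand: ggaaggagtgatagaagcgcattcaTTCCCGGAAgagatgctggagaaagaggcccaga
Ifit1, IRF motif in 2 places, chr19:34640760-34640838, plus strand: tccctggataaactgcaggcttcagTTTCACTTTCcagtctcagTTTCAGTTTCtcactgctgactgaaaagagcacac
These 6 were printed because Ifngr2 and Tnfaip6 differed between BA and AV mice, Nfkbia, Nfkbid and Tnfrsf1b had low unadjusted p values between BA and AP mice, and Ifit1 is a standard interferon-induced gene. The Nfkbia match starts 29 bases and the Ifngr2 match 75 bases before the start site, and the Ifit1 matches start 104 and 85 bases before it.

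In BA mice 1 cytokine stood above all other members. Per kilobase of exon, and with the lowest value of each mouse subtracted, Il33 had a signal of 900.2, 1209 and 1206 in BA replicates 1 to 3 of the BA vs AP table, a mean of 1105 ± 178 (SD, n = 3), above 99.5% of all listed genes. Il33 codes for interleukin 33, an alarmin that is stored in the nucleus and is known in the brain from oligodendrocytes and astrocytes. Tnfaip6, which codes for a secreted protein that binds hyaluronan, came next with 533 ± 98.6 (SD, n = 3) per kilobase. Then followed Nfkbia, the IkB alpha that holds NF-kB in the cytoplasm, with 196 ± 91.5, the inflammasome cytokine Il18 with 181 ± 38.1, Jak2 with 148 ± 5.95, and Il6st, the shared gp130 chain of the IL-6 receptor family, with 109 ± 19.7 (SD, n = 3 each). The BA mice ranged apart between Il33 and Tnfaip6, between Tnfaip6 and Nfkbia, between Jak2 and Il6st, and between Il6st and Traf6, while the ranges of Nfkbia and Il18 and those of Il18 and Jak2 overlapped. Traf6, Jak1, Tgfbr1 and Tnfrsf22 complete the 10 highest, with means between 61.8 and 83.2 per kilobase, each overlapping the next. At the low end stood Il1rl1, the receptor of interleukin 33, with 1.04 ± 0.82, Traf1 with 0.75 ± 0.24 and Il3ra with 0.49 ± 0.18 (SD, n = 3 each). The median over the 86 members was 19.9 per kilobase, against 30.3 over 11783 listed genes with a known exon length.

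**Figure D1:**
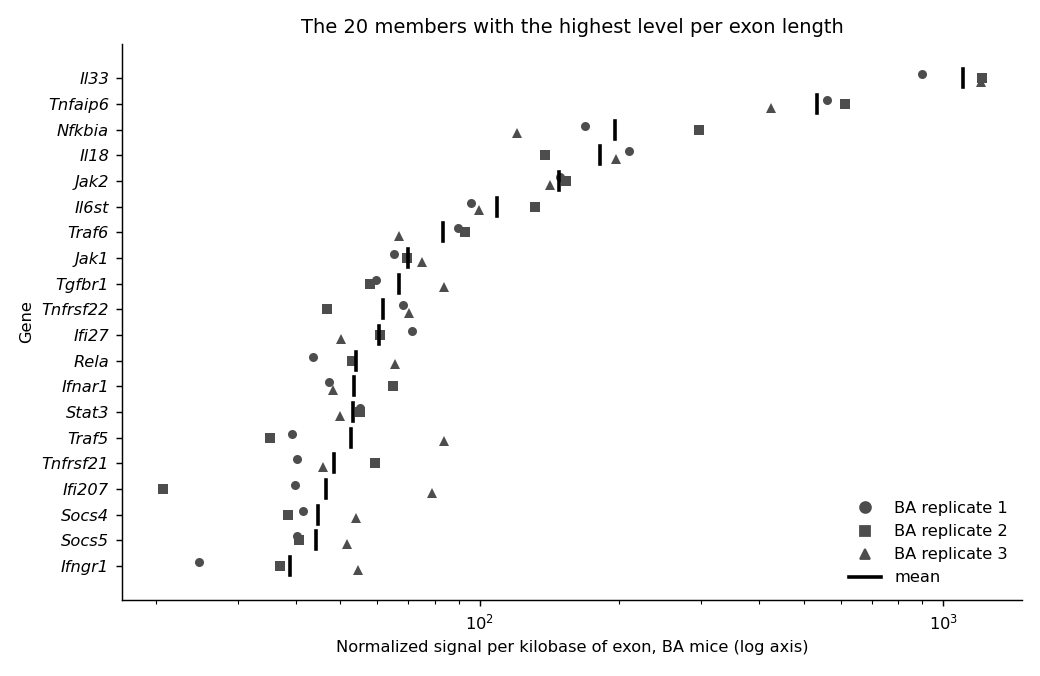
Normalized signal per kilobase of exon (log axis) in the 3 BA mice of the BA vs AP table for the 20 members with the highest mean; points are mice and the bar is the mean. Il33 (mean 1105) and Tnfaip6 (mean 533) lie apart from the other members, and the mice of most neighbours below them overlap.

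The comparison of AV with BA mice asks which genes of these routes differ in mice that avoid. All listed genes of a table were fitted together by limma on log2(value + 1), a gene was called when its Benjamini-Hochberg adjusted p was under 0.05, and a log2 fold change is AV or AP minus BA. Of the 52 members, 13 were called, against 29.7% of all 9872 genes. In AV mice 4 were higher, Ifngr2, Tnfrsf23, Tnfrsf19 and Socs7, where 13.6% of all genes were. Another 9 were lower, Il17rb, Il18bp, Irf9, Tnfaip6, Jak2, Ikbkb, Il33, Stat5a and Traf6, where 16.2% of all genes were. The called share of the members is thus near that of all genes. An unadjusted p under 0.05 was found for 48.1% of members and 43.2% of all genes. The groups did not overlap for 55.8% of members and 58.9% of all genes, with AV mice higher for 19.2% against 27.7% and lower for 36.5% against 31.3%. The median log2 fold change was 0.046 over the members and -0.026 over all genes. The median absolute log2 fold change was 0.77 and 0.57. The count moved with the mice used. Without AV replicate 3 it was 23, with 14 lower and 9 higher, where 35.4% of all genes were called, and without AV replicate 1 it was 15 (32.1% of all genes). In these fits the spread comes from the BA mice alone and the lone AV mouse is assumed to vary like them. Without BA replicate 1, 2 or 3 it was 9, 10 and 11 (16.1%, 15.4% and 18.0% of all genes). Below, values follow the order of replicates 1, 2 and 3 for BA and AP mice and of replicates 1 and 3 for AV mice.

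Among ligands, Il33 fell in AV mice. It was at 2307, 2919 and 2978 in BA mice and at 1028 and 1192 in AV mice (means 2735 ± 372, SD, n = 3, and 1110.1 ± 116, SD, n = 2). Both AV mice were below every BA mouse, and the log2 fold change was -1.29 (SE, standard error, 0.23, adjusted p = 0.00875 by limma). Il18, the other interleukin in the table, was at 187, 119 and 184 in BA mice and at 138 and 180.1 in AV mice, so that the groups overlapped.

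Of 6 interleukin receptor chains and binding proteins, 2 were called, both lower in AV mice and both in AV replicate 1 under 5.68, the level taken for 3 reads. Il17rb codes for the receptor chain that binds interleukin 25 (ENSMUSG00000015966.17, chromosome 14 of GRCm38). Its signal was 54.2, 91.0 and 96.2 in BA mice and 4.53 and 14.5 in AV mice. The groups were far apart, with a log2 fold change of -3.09 (SE 0.47, adjusted p = 0.00561 by limma), although both AV values are low. Il18bp codes for a secreted decoy that binds interleukin 18 (ENSMUSG00000070427.4, chromosome 7). It was at 78.9, 63.2 and 48.7 in BA mice and at 5.43 and 8.66 in AV mice, which gives a log2 fold change of -3.01 (SE 0.30, adjusted p = 0.00304 by limma). Exons of Il17rb share 141 bases with Actr8 and those of Il18bp 80 bases with Numa1, in both cases on the opposite strand. The libraries kept the strand, but whether the counting used it is not given in the sources used here, so reads of these pairs may not be told apart. Il17ra, the common chain of the IL-17 receptors, was at 193, 132 and 134 in BA mice and at 33.5 and 103 in AV mice, and Il15ra was also under all BA mice in both AV mice, but neither was called (limma adjusted p of 0.0699 for each).

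Of the 2 interferon receptor chains listed, Ifngr2 rose. Ifngr2, the signalling chain of the interferon gamma receptor (ENSMUSG00000022965.8, chromosome 16 from 91547072 to 91565623, plus strand), was at 24.1, 42.8 and 37.2 in BA mice and at 131 and 141 in AV mice. The AV mice were alike and both far above the BA mice, with a log2 fold change of 1.98 (SE 0.29, adjusted p = 0.00513 by limma). Ifnar1, a chain of the type I interferon receptor, was at 248, 313 and 238 in BA mice and at 84.9 and 213 in AV mice. Only AV replicate 1 was far below the BA mice, and Ifnar1 was not called (log2 fold change -0.97, limma adjusted p = 0.109).

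Of 5 genes of the TNF receptor superfamily, 2 were called, both higher in AV mice. Tnfrsf19, known as Troy, was at 68.9, 79.2 and 103 in BA mice and at 175 and 282 in AV mice, which gives a log2 fold change of 1.42 (SE 0.30, adjusted p = 0.0148 by limma). Its groups did not overlap, but the call was lost without BA replicate 1 or BA replicate 2, with limma adjusted p of 0.0591 and 0.0621. Tnfrsf23, a decoy receptor for the death ligand TRAIL, was at 2.99, 3.79 and 2.02 in BA mice, all under the level of 3 reads, and at 12.4 and 14.04 in AV mice. It was called with a limma adjusted p of 0.00471, but its fold change depends on the pseudocount at such values and is not given. Its paralog Tnfrsf22 lies beside it on chromosome 7, from 143634806 to 143649661 against 143665809 to 143685872 for Tnfrsf23, and was at 408, 282 and 366 in BA mice and at 299 and 191 in AV mice. The ranges of Tnfrsf22 overlapped, and how reads were divided between the paralogs is uncertain.

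Neither listed TGF-beta receptor and neither listed Toll-like receptor was called. Tlr9, the endosomal receptor of unmethylated CpG DNA, was at 15.2, 21.4 and 26.6 in BA mice and at 29.9 and 90.6 in AV mice. Both AV mice lay above the BA mice, by little in AV replicate 1, and the log2 fold change was 1.30 (limma adjusted p = 0.0806). Tgfbr1, the type I receptor of TGF-beta, was at 353, 320.4 and 457 in BA mice and at 316 and 536 in AV mice, on both sides of the BA mice.

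In the JAK-STAT route Jak2 and Stat5a fell and Socs7 rose. Jak2, the kinase of many cytokine receptors, was at 675, 647 and 614 in BA mice and at 202 and 318 in AV mice, which gives a log2 fold change of -1.34 (SE 0.26, adjusted p = 0.0112 by limma). The BA mice differed little among themselves and stood well above both AV mice. Jak1 was at 409.6, 405 and 469.9 in BA mice and at 417 and 755 in AV mice, which overlapped. Stat5a, a target of Jak2, was at 20.1, 16.7 and 14.6 in BA mice and at 5.40 and 10.4 in AV mice, with AV replicate 1 under the level of 3 reads. Its log2 fold change of -1.07 (SE 0.31, adjusted p = 0.0398 by limma) had the highest adjusted p of the 13 calls. The call was lost without any 1 of the BA mice, with limma adjusted p of 0.0776 to 0.123. Without AV replicate 1, which leaves 1 AV mouse, the log2 fold change was -0.66. Stat5a shares 72 exon bases with Stat3 on the opposite strand. Stat2, which carries the interferon signal, was under all BA mice in both AV mice but was not called, with a log2 fold change of -0.69 and a limma adjusted p of 0.103. Socs7, of the SOCS family, was at 121, 113 and 136 in BA mice and at 324 and 309.9 in AV mice. The mice within each group were close together, and the log2 fold change was 1.36 (SE 0.21, adjusted p = 0.00615 by limma). The other 4 SOCS genes were not called.

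On the route from receptors to NF-kB, the ubiquitin ligase Traf6 and the kinase Ikbkb fell. Traf6, which passes on IL-1 and Toll-like receptor signals, was at 632, 612 and 451 in BA mice and at 247 and 299 in AV mice, which gives a log2 fold change of -1.04 (SE 0.25, adjusted p = 0.0230 by limma). All BA mice lay above both AV mice, but the call was lost without BA replicate 1 or BA replicate 2, with limma adjusted p of 0.0796 and 0.0856. Without AV replicate 1, which leaves 1 AV mouse, the log2 fold change was -0.90. Ikbkb, the kinase IKK beta that marks IkB proteins for destruction, was at 567, 369 and 442 in BA mice and at 163 and 199 in AV mice. Again the groups were apart, with a log2 fold change of -1.32 (SE 0.26, adjusted p = 0.0121 by limma). Ikbkg, the scaffold of the same complex, was at 171, 123 and 126 in BA mice and at 137 and 201 in AV mice, with overlap. The 3 NF-kB subunits listed, Rela, Relb and Nfkb2, were under all BA mice in both AV mice, and none was called, with log2 fold changes of -0.86, -0.64 and -0.33 and limma adjusted p of 0.102, 0.116 and 0.267. Nfkbid, a nuclear IkB protein, was at 35.7, 41.2 and 59.9 in BA mice and at 72.5 and 79.9 in AV mice, above all BA mice and not called (limma adjusted p = 0.0804). Nfkbil1 was at 21.1, 12.95 and 7.45 in BA mice and at 47.9 and 13.2 in AV mice, so that AV replicate 3 lay within the BA mice (log2 fold change 0.94, and 0.048 without AV replicate 1).

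Tnfaip6, also known as TSG-6 and shown above with a STAT motif, fell in AV mice. It was at 832, 898 and 615 in BA mice and at 163 and 225 in AV mice, which gives a log2 fold change of -2.01 (SE 0.27, adjusted p = 0.00427 by limma). The groups were well apart at levels far from the limit of detection. Tnfaip1 and Tnfaip8 were above all BA mice in both AV mice and were not called, with log2 fold changes of 0.78 and 0.89 and limma adjusted p of 0.0617 and 0.0558.

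Irf9, a DNA-binding partner of Stat2 after type I interferon, was lower in AV mice. It was at 65.4, 47.0 and 51.1 in BA mice and at 4.65 and 20.2 in AV mice. Both AV mice were below every BA mouse but differed from each other, with AV replicate 1 under the level of 3 reads, and the log2 fold change was -2.33 (SE 0.53, adjusted p = 0.0185 by limma). Without AV replicate 1 it was -1.37, and without BA replicate 1, 2 or 3 the limma adjusted p was 0.0730, 0.0619 and 0.0585. Irf9 shares 123 exon bases with Rnf31 on the same strand, and Rnf31 had a log2 fold change of 0.35 (limma adjusted p = 0.522). Of the 4 interferon-induced genes listed none was called. Ifit1, with its pair of IRF motifs above, was at 2.003, 7.497 and 1.993 in BA mice and at 22.4 and 7.37 in AV mice, so that AV replicate 3 lay within the BA mice. Ifih1, the RNA sensor MDA5, showed the same split, with 30.5, 29.9 and 30.6 in BA mice and 98.4 and 29.0 in AV mice.

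**Figure D2:**
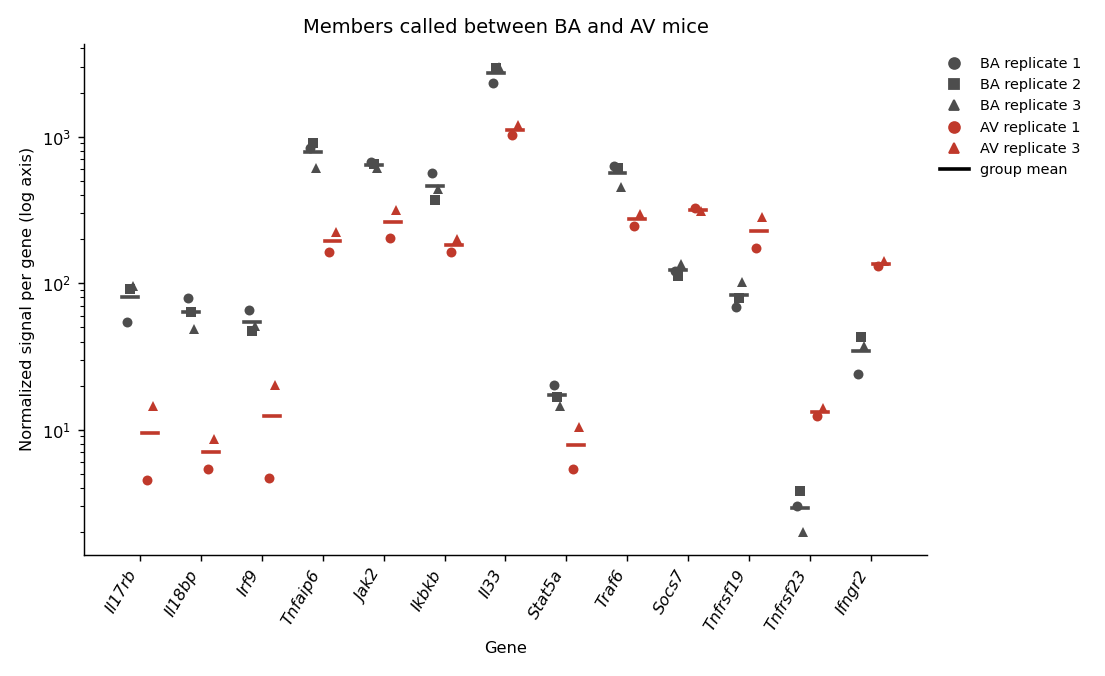
Normalized signal (log axis) of the 13 members called between BA and AV mice; points are mice, bars are group means. AV mice lie under all BA mice for 9 genes, among them Il17rb and Il18bp, and above them for Tnfrsf19, Tnfrsf23, Socs7 and Ifngr2.

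Markers of other cells moved with this comparison, where 13.6% of all genes were called higher and 16.2% lower. The summed signal of the 13 oligodendrocyte markers was lower in both AV mice, as given above, and 11 of the 13 were called lower. Of 28 microglia markers 7 are listed, and their sum was 933 to 1215 in BA mice and 1586 and 2175 in AV mice, with 6 called higher. The 15 listed of 17 astrocyte markers summed to 14620 to 21020 in BA mice and to 36350 and 70970 in AV mice, with 4 called higher. Much of that sum is Slc1a2, with a mean of 7841 in BA and 34420 in AV mice. Of the 15, 12 had a positive and 3 a negative log2 fold change. The 7 listed of 18 endothelial markers summed to 949 to 1074 and to 616 and 563, with 1 called lower. The part of these cells in the values of the members was not tested.

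Other genes of the same routes, collected by textbook role outside the symbol rule, also went both ways in AV mice. The counts below stand beside 13.6% of all genes called higher and 16.2% called lower, and no list was tested as a whole. Of 34 listed adaptors and kinases of the TNF, Toll-like and IL-1 receptor routes, 2 were called higher and 6 lower. Ube2v1, a partner of the Traf6 ubiquitin reaction, rose most (log2 fold change 1.48), and the death adaptor Fadd fell most (-2.79) (limma adjusted p of 0.00634 and 0.00337). Of 16 interferon-stimulated genes 3 were called higher and 2 lower, from Shisa5 with 1.33 to Xaf1 with -3.26 (limma adjusted p of 0.00931 and 0.00256). Of 20 regulators of JAK-STAT signalling 2 were called in each direction, with the adaptor Gab1 at -1.79 (limma adjusted p = 0.00634) and Crlf2, a chain of the TSLP receptor, higher from a BA mean of 2.97, under the level of 3 reads, to 27.2. Of 21 ligands, SMADs and regulators of TGF-beta, the inhibitors Ski and Smad7 were the called genes, with log2 fold changes of 0.96 and -1.30. Of 8 NF-kB target genes Sdc4 and Sod2 were called higher and the growth factor Csf1 and Litaf lower, with Sdc4 at 1.11 and Csf1 at -1.45. None of 7 nucleic acid sensors and adaptors was called by limma, and none had an unadjusted p under 0.05, where 43.2% of all genes had one.

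The comparison of AP with BA mice asks the same of mice that approach. None of the 86 members was called by limma, where 1 of 11820 genes was (0.00846%), and the lowest adjusted p of a member was 0.235. An unadjusted p under 0.05 was found for 18 members (20.9%), all of them higher in AP mice, against 7.77% of all genes, 4.99% higher and 2.77% lower. The groups did not overlap for 17 members with AP mice higher (19.8%, against 5.64% of all genes) and for 1, Jak2, with AP mice lower (1.16%, against 6.45%). The log2 fold change was positive for 58.1% of members and 46.5% of all genes, with a median of 0.12 over the members and -0.032 over all genes. Leaving out each mouse in turn left 15 to 22 members with an unadjusted p under 0.05, and 18 without AP replicate 1, whose values over all genes had a median correlation of 0.967 with BA mice and of 0.940 with the other AP mice. The share of all genes with such a p in these fits is not given here, so these counts have no background beside them. Of the 18 members, 12 are listed in the BA vs AP table alone. A gene low in BA mice can pass a low-count filter through the AP mice where it is high. The share with AP mice higher is therefore not independent of the filter, and how much it owes to the filter was not tested. The 18 are described by role below as values, since none passed the test.

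Of 5 Toll-like receptors, 3 had an unadjusted p under 0.05, and all 5 had a positive log2 fold change, which for Tlr5 was -0.023 without BA replicate 2. Tlr4, the receptor of bacterial lipopolysaccharide (ENSMUSG00000039005.13, chromosome 4 from 66827584 to 66930284, plus strand), was at 4.13, 9.17 and 16.7 in BA mice and at 49.8, 47.3 and 49.6 in AP mice. The 3 AP mice were nearly equal and all above the BA mice, and the log2 fold change of 2.36 (SE 0.41, adjusted p = 0.237 by limma) was the largest of any member. Tlr7, which reads single-stranded RNA in endosomes, was at 75.5, 74.8 and 150.3 in BA mice and at 254, 199 and 388 in AP mice. Tlr9 was at 22.2, 23.5 and 30.2 in BA mice and at 98.6, 41.7 and 77.7 in AP mice. For both, every AP mouse exceeded every BA mouse, with log2 fold changes of 1.50 and 1.41 (limma adjusted p of 0.347 for each).

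Among 16 interleukin receptor chains 4 had an unadjusted p under 0.05. Il21r was at 6.26, 9.17 and 15.5 in BA mice and at 49.8, 26.1 and 40.9 in AP mice, and Il6ra, the binding chain for interleukin 6, at 44.6, 34.8 and 107 in BA mice and at 155, 122 and 192 in AP mice. AP mice exceeded BA mice without overlap for both, with log2 fold changes of 1.85 and 1.47 (limma adjusted p of 0.248 and 0.401). Il10rb, the shared chain of the interleukin 10 receptor family, was at 19.1, 22.5 and 62.1 in BA mice and at 80.5, 47.4 and 83.1 in AP mice, so that AP replicate 2 lay under BA replicate 3. Il3ra was at 3.07, 4.05 and 3.23 in BA mice, and at 9.96, 9.08 and 11.7 in AP mice (limma adjusted p = 0.235). By the steps these are 4 reads in BA and 26 in AP mice, a ratio per read listed of 5.60 with an exact 95% interval from 1.94 to 22.1 that covers counting error only. Il3ra is listed with AP mice alone, and all BA mice are under the level of 3 reads. It may thus have passed the filter through the AP mice, so the interval is a description and not a test. Of the 16 chains, 8 had a negative log2 fold change, from Il17rc with -0.80 upwards, and none of these had an unadjusted p under 0.05. Of the interleukins themselves, Il33 was at 2600.1, 3492 and 3484 in BA mice and at 2707, 3022 and 2841 in AP mice, within the BA range, and Il18 overlapped between the groups too. Il16 did as well, with 6.26, 18.4 and 40.003 in BA mice and 31.6, 21.8 and 38.8 in AP mice (log2 fold change 0.79).

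Among the other receptors, Tnfrsf1b, the second TNF receptor, was at 18.0, 11.2 and 62.1 in BA mice and at 73.6, 63.6 and 103 in AP mice. The AP mice were above all BA mice, but AP replicate 2 by little over BA replicate 3, the highest of the BA mice, and the log2 fold change was 1.70 (SE 0.54, adjusted p = 0.478 by limma). Tnfrsf21 was at 167, 246 and 191 in BA mice and at 268, 393 and 262 in AP mice. Tnfrsf22, at 289.7, 199 and 299 in BA mice and at 259, 135 and 104 in AP mice, overlapped and had no unadjusted p under 0.05 (log2 fold change -0.74). Of the 3 TGF-beta receptors listed, Tgfbr1 and Tgfbr2 had an unadjusted p under 0.05. Tgfbr1 was at 391, 381 and 548 in BA mice and at 960.5, 721 and 797 in AP mice, and Tgfbr2 at 90.7, 79.9 and 169 in BA mice and at 223, 196 and 302 in AP mice. Neither overlapped, with log2 fold changes of 0.92 and 1.13 (limma adjusted p of 0.392 and 0.422), while Tgfbr3, the coreceptor, overlapped with -0.22. Ifngr2 was at 27.6, 50.2 and 44.9 in BA mice and at 56.6, 94.8 and 63.6 in AP mice, all AP mice higher, with a log2 fold change of 0.80 (limma adjusted p = 0.582).

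In the JAK-STAT route, Jak1 was at 474, 505 and 543 in BA mice and at 719, 766 and 831 in AP mice, and Jak3, known from cells of the immune system, at 23.8, 24.5 and 35.1 in BA mice and at 50.9, 31.8 and 55.0 in AP mice. Jak1 did not overlap and Jak3 did, with log2 fold changes of 0.61 and 0.69 (limma adjusted p of 0.516 and 0.623). Jak2 was the 1 member with all AP mice under all BA mice, at 749, 774 and 714 against 668, 586 and 489, with a log2 fold change of -0.37 (limma adjusted p = 0.714). None of 5 STAT and 4 SOCS genes had an unadjusted p under 0.05. Of these Stat3 alone had all AP mice above the BA mice, at 526, 526 and 478 against 765, 567 and 695. Among the SOCS genes the largest change was -0.16, of Socs5.

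On the NF-kB route, 2 of 3 IkB genes and none of the subunits or IKK genes had an unadjusted p under 0.05. Nfkbia, which NF-kB itself switches on and whose promoter is printed above, was at 274, 481 and 196 in BA mice and at 617, 444 and 552 in AP mice. BA replicate 2 lay above AP replicate 2, and the log2 fold change was 0.85 (SE 0.34, adjusted p = 0.606 by limma). Nfkbid was at 39.3, 51.2 and 73.1 in BA mice and at 180.5, 72.1 and 165 in AP mice, so that AP replicate 2 lay just under BA replicate 3. Its log2 fold change was 1.27 (limma adjusted p = 0.446), and that of Nfkbib, which had no unadjusted p under 0.05, was 0.73. The 4 subunits Nfkb1, Nfkb2, Rela and Relb had log2 fold changes between 0.080 and 0.45, and Ikbkb and Ikbkg of -0.39 and -0.18, all with overlap. None of 9 IRAK and TRAF genes had an unadjusted p under 0.05. Traf4 was at 75.5, 60.4 and 43.7 in BA mice and at 44.1, 36.7 and 44.2 in AP mice, and Traf1 at 6.26, 10.2 and 9.36 in BA mice and at 5.41, 12.6 and 2.0 in AP mice. Both overlapped, with log2 fold changes of -0.48 and -0.56. Of the TNF-induced proteins Tnfaip8l2 had the largest change (0.77), with 7.33, 9.17 and 6.90 in BA mice and 8.82, 9.79 and 30.1 in AP mice, where AP replicate 3 stands apart.

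Of 6 interferon regulatory factors, Irf5, which acts below Toll-like receptors, was at 43.6, 24.5 and 53.5 in BA mice and at 143, 70.7 and 137 in AP mice. Every AP mouse exceeded the BA mice, and the log2 fold change was 1.51 (SE 0.37, adjusted p = 0.360 by limma). Irf5 shares 411 exon bases with Tnpo3 on the opposite strand. Of 7 interferon-induced genes Ifitm10 alone had an unadjusted p under 0.05, at 7.33, 12.2 and 4.45 in BA mice and 24.3, 18.9 and 20.4 in AP mice, again without overlap (log2 fold change 1.39, limma adjusted p = 0.347). Ifit2, a classical target of interferon, was at 57.4, 94.2 and 98.8 in BA mice and at 58.9, 65.0 and 33.4 in AP mice, with overlap and a log2 fold change of -0.68.

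**Figure D3:**
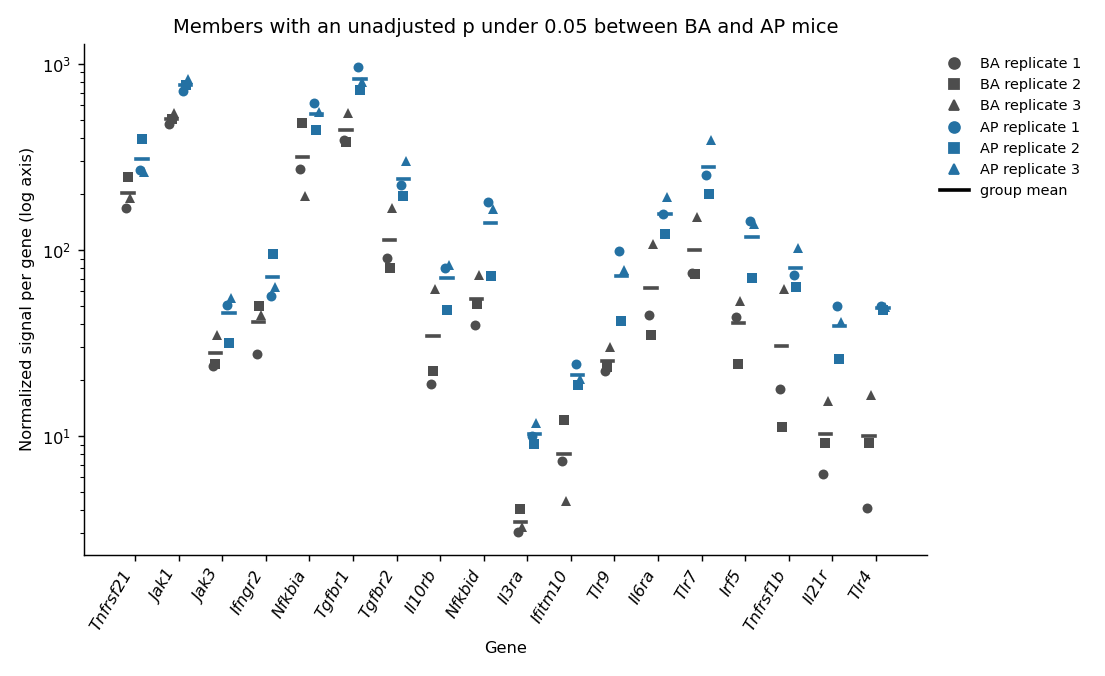
Normalized signal (log axis) of the 18 members with an unadjusted p under 0.05 between BA and AP mice, none of which was called; points are mice, bars are group means. The AP mice lie above all BA mice except for Il10rb, Jak3, Nfkbia and Nfkbid, and Tlr4 is nearly equal in the 3 AP mice (47.3 to 49.8).

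Microglia markers moved with this comparison, where 4.99% of all genes had an unadjusted p under 0.05 with AP mice higher. Of 28 on the list 25 are listed, and 24 of them had an unadjusted p under 0.05 with AP mice higher, although none was called by limma. Their summed signal was 3428, 2963 and 5660 in BA mice and 10160, 7663 and 12790 in AP mice. Every AP mouse exceeded every BA mouse in this sum, BA replicate 3 was the highest BA mouse and AP replicate 2 the lowest AP mouse. Toll-like receptors, Irf5, Tnfrsf1b and Il6ra are known from microglia and other myeloid cells. The defining markers Tmem119 and P2ry12 were at 44.8 ± 6.41 and 214 ± 117 (SD, n = 3) in BA mice and at 182 ± 57.7 and 683 ± 313 (SD, n = 3) in AP mice, so no group was near 0. Astrocyte markers were at 15140, 65830 and 37530 in AP mice against 18490 to 24130 in BA mice, and endothelial markers at 1681 to 2222 against 1452 to 1959. The part of any of these cells in the values of the members was not tested.

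**Figure D4:**
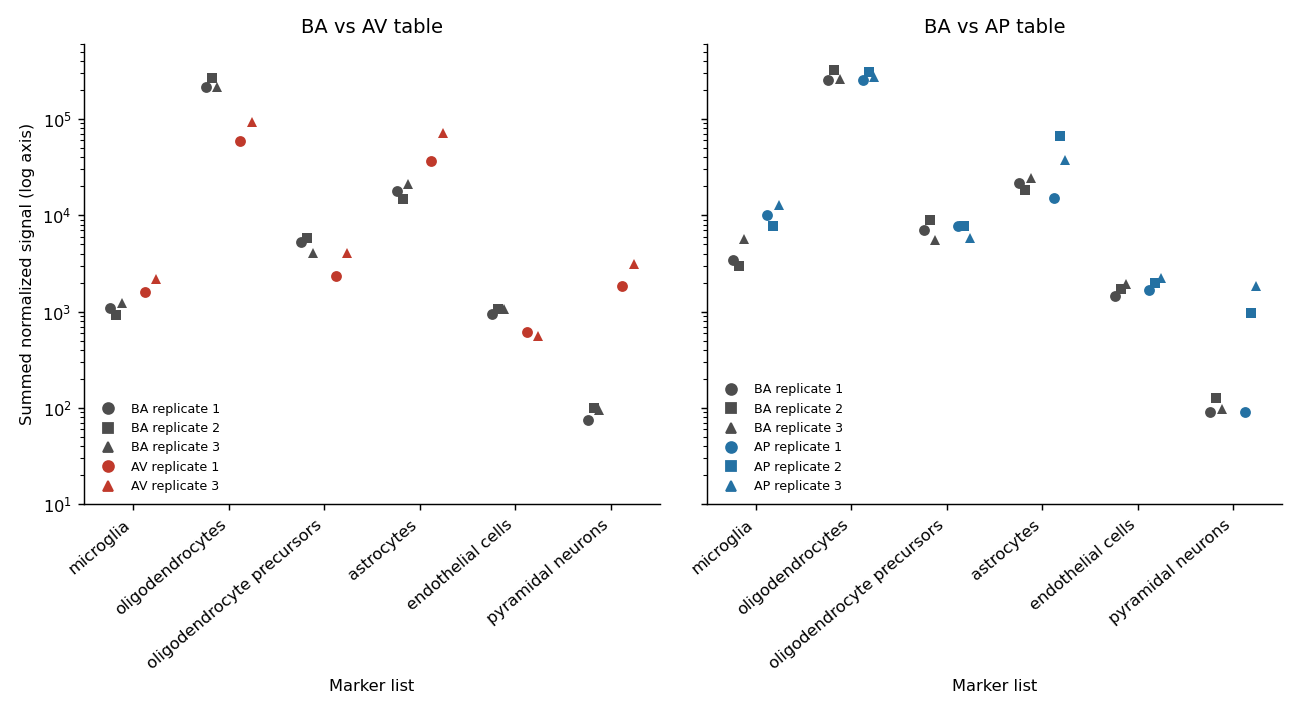
Summed normalized signal (log axis) of the listed markers of 6 cell types in each mouse, in the BA vs AV table on the left and the BA vs AP table on the right. Oligodendrocyte sums are lower in AV mice (59180 and 92270) than in BA mice, and microglia sums are higher in every AP mouse (7663 to 12790) than in any BA mouse.

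None of the genes on the lists by role outside the symbol rule was called between BA and AP mice by limma, and those named below were chosen after their values were seen. The counts below stand beside 7.77% of all genes with an unadjusted p under 0.05, 4.99% with AP mice higher and 2.77% lower. No list was tested as a whole, and the counts of the TGF-beta genes and of the adaptors and kinases are near or under that share. Of 37 interferon-stimulated genes 5 had an unadjusted p under 0.05 with AP mice higher and 2 with AP mice lower, among them B2m and Psmb8, of antigen presentation, with log2 fold changes of 1.38 and 1.57, and Rtp4 with -1.42. Of 19 NF-kB target genes 5 had one, all higher in AP mice, among them the chemokine Ccl4 with 2.38 and Cd83 with 1.61, and 16 of the 19 had a positive log2 fold change. Of 24 JAK-STAT regulators it was 3, all higher, of 26 TGF-beta genes Tgfb1 with 1.40 and Tgfb3 with -0.83, of 10 nucleic acid sensors and adaptors Unc93b1, the chaperone of endosomal Toll-like receptors, with 0.85, and of 40 adaptors and kinases none. Csf1r, among the JAK-STAT regulators, is also on the list of microglia markers.

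The comparisons share the BA mice, so values of the same gene in both are related, and the following are set side by side as values. The log2 fold change of Ifngr2 was 1.98 in AV and 0.80 in AP mice, that of Socs7 1.36 and 0.069, that of Tnfrsf19 1.42 and 0.16. That of Il17rb was -3.09 and -0.069, that of Il18bp -3.01 and -0.33, that of Irf9 -2.33 and -0.32, that of Tnfaip6 -2.01 and 0.12. That of Jak2 was -1.34 and -0.37, that of Ikbkb -1.32 and -0.39, that of Il33 -1.29 and -0.15, that of Stat5a -1.07 and -0.28, and that of Traf6 -1.04 and -0.15. Whether the changes of AV and AP mice differ was not tested, since the tables were normalized separately. Of the 18 members described for AP mice, the BA vs AV table lists Tlr9, Nfkbid, Tgfbr1, Jak1 and Tnfrsf21 besides Ifngr2, with log2 fold changes in AV mice of 1.30, 0.76, 0.14, 0.39 and 0.31.

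**Figure D5:**
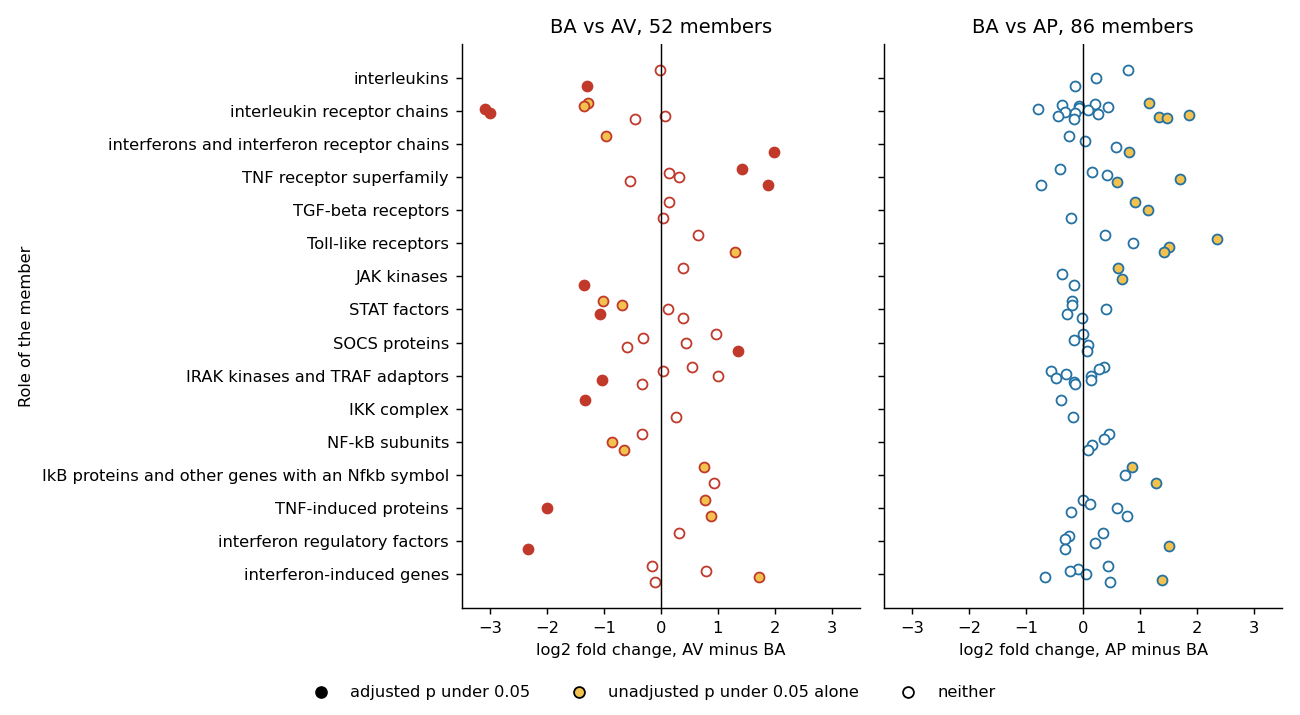
Log2 fold change of each member by its role, AV minus BA for 52 members on the left and AP minus BA for 86 members on the right; filled points have an adjusted p under 0.05, yellow points an unadjusted p under 0.05 alone. Called members lie on both sides of 0 in AV mice, and in AP mice all 18 yellow points lie above 0.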

How the data were processed

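The authors deposited a normalized signal per gene and mouse, with AV and AP mice in a table each beside the same BA mice. Per the methods of the study, libraries were made with a stranded low-input kit, and values were TMM-normalized, filtered for low counts and corrected for batch with ARSyN. The gene count given there, 9872, is that of the BA vs AV table. No count is given for the BA vs AP table, so its batch correction is uncertain. Read-sized steps among low values were measured in the BA vs AP table alone. Any effect of the correction on the spread between mice, and so on limma p values and called counts, was not tested. The submitters' processing notes name bcl2fastq 2.20, Salmon 1.2 and GRCm38.p6, with no role. Symbols, coordinates and exon lengths came from GENCODE M21 (11783 of 11820 and 9871 of 9872 genes matched), promoters from RefSeq.

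Tables were fitted separately with limma 3.58.1 (R 4.3.3) on log2(value + 1), two-sided, without covariates, with Benjamini-Hochberg adjustment over all listed genes. The study used NOISeqBIO, which was not run here. On simulated data, log2 changes of 1, 2 and 3 were called for 55.9%, 81.8% and 100.0% of the genes changed so in the BA vs AV design and for 51.5%, 86.4% and 100.0% in the BA vs AP design. The changed genes were drawn only from genes above a minimum BA level, and the simulated spread was that of the BA mice alone. These shares therefore do not hold for members at low signal or where AV or AP mice vary more than BA mice. Levels were divided by exon length.

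The members, lists and tests were chosen with earlier results of these data known. Named were called members, those with an unadjusted p under 0.05 in BA vs AP, the 5 largest changes in each direction, the 10 highest levels, the largest change of each role, roles of up to 3 members, and of the lists by role the called genes with the largest changes. Il15ra, Stat2, Ifih1, Tnfaip1, Tnfaip8, the lowest levels, and for AP mice Tlr5, Jak2, Rela, Relb and Nfkb2, were named with their values known. Of the members 1 is not described singly here. Alternatives were other pseudocounts, a filter, other scalings, a variance trend, other thresholds, the replicate number as a block and each mouse left out.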

Additional observations from a re-analysis of the deposited data

How the results depend on the processing

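The number of members called between BA and AV mice was 12 to 15 with a pseudocount of 0.5 or 5, a minimum mean of 10 in a group, centring on the median of each mouse, quantile normalization or a variance trend, against 13 as reported, and 29.2% to 34.8% of all genes were called under these. It was 7 at an adjusted p under 0.01 (11.7% of all genes), 21 at one under 0.1 (40.6%), and 9 to 23 with each mouse left out (15.4% to 35.4% of all genes), where 23 was reached without AV replicate 3. The median log2 fold change of the 52 members was between -0.16 and 0.12 with each mouse left out and also changed sign under centring and quantile normalization, so it has no secure direction. With the replicate number as a block, 6 members were called, Il17rb, Il18bp, Tnfaip6, Ifngr2, Tnfrsf23 and, newly, Ifit1, and 970 of all genes (9.83%). Ikbkb, Il33, Irf9, Jak2, Socs7, Stat5a, Tnfrsf19 and Traf6 lost their calls there. The numbers were not treated as pairs in the reported fit, and the labels do not say whether they are. AP mice deviated together with the BA mouse of their number with r of 0.020, 0.12 and 0.081. Each AP mouse correlated best with the BA mouse of its number. For AV mice r was -0.060 and -0.039, but the deviations of 2 mice from their mean mirror each other. These AV values therefore cannot show whether the numbers are pairs. No called member turned direction under an alternative run, while 12 of the 52 members did, among them Tgfbr1 (log2 fold change between -0.24 and 0.52 over the mice left out), Jak1 (-0.035 to 0.82) and Ikbkg (-0.018 to 0.54) without AV replicate 3, Ifih1 (-0.062 to 1.67) without AV replicate 1, and Il18 (-0.24 to 0.17). For BA vs AP, 0 members were called by limma under all alternatives run. Under them 15 to 22 had an unadjusted p under 0.05, and the share of all genes with one is not given here. None of the 18 members described by their unadjusted p turned direction. Of all 86, 26 did with a mouse left out, among them Relb (-0.20 to 0.32), Tgfbr3 (-0.50 to 0.026), Tnfrsf19 (-0.35 to 0.68), Tnfaip6 (-0.039 to 0.23), Il17rb (-0.31 to 0.13) and Il18bp (-0.63 to 0.11). With 2 AV and 3 BA mice the spread within groups rests on few mice, and no depth was read from the values with AV mice.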

Other observations

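The BA mice are the same in both tables, which allows a look at the members outside the comparisons. Over 9417 genes listed in both tables, the mean of the BA mice in the BA vs AP table divided by that in the BA vs AV table had a median of 1.18, with 1.36% of genes under 1. Of the 48 members in both, Tnfrsf22 had the lowest ratio, 0.745, from 352 to 263, and the next lowest was Ifih1 with 1.10. Tnfrsf23, the neighbouring paralog of Tnfrsf22, is listed in the BA vs AV table alone.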
